A study of Mus musculus with 5 samples.

Results

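Monocytes are blood-borne myeloid cells that circulate to tissues and can become macrophages or antigen-presenting cells there. In mice, classical monocytes carry Ly6C and the chemokine receptor CCR2 and are recruited to inflamed tissue, whereas nonclassical monocytes depend on the nuclear receptor Nr4a1 and patrol the vessel wall. The heart also holds resident macrophages, which express the complement genes C1qa, C1qb and C1qc. In these single-cell RNA libraries of mouse hearts, 118 of 38337 barcodes met a monocyte rule on raw UMI counts (a UMI is 1 tagged RNA molecule). The rule kept barcodes with at most 10% mitochondrial UMIs and asked for 3 or more UMIs over Lyz2 (lysozyme) and Csf1r (the CSF1 receptor). It asked for 2 or more over Ly6c2, Plac8, Chil3 and Ace, at most 1 over the 3 C1q genes, fewer than 10 over the neutrophil genes S100a8 and S100a9 and at most 1 over Cd3d, Cd3e and Cd3g. UMIs of Cd79a or Ms4a1 (B cells), Cdh5 or Pdgfra (endothelial cells and fibroblasts) and Flt3, Xcr1, Clec9a or Zbtb46 (dendritic cells) excluded a barcode. The members were chosen by measured UMIs of these cells, so the 22 genes of the rule are described below and not tested.

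The study compared hearts of control mice (Ctla4+/+Pdcd1-/-, 4 mice) with hearts of a model of myocarditis under immune checkpoint inhibitors (Ctla4+/-Pdcd1-/-, called disease here, 10 mice). These genotypes are those of the series' design text. The genotype labels of the libraries themselves read Pdcd1 for control replicate 1 and disease replicate 3 alone, Pdcd2 for control replicate 2 and disease replicate 4 and Pdcd3 for disease replicate 5, and the dye in their cell labels runs likewise from DRAQ5 to DRAQ9. The design text was followed; by it both groups lack PD-1, the contrast is the loss of 1 allele of Ctla4 on that background, and there is no wild-type group. Hearts were digested, pooled and sorted for DRAQ5-positive, DAPI-negative cells, which are nucleated and alive, and loaded into 2 control libraries (replicates 1 and 2) and 3 disease libraries (replicates 3, 4 and 5). The animals' age and the mice behind each library are not given in the sources used here, so p-values measure the spread between libraries of pooled hearts, which may be technical.

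The 5 libraries held 18 and 19 (controls) and 17, 50 and 14 (disease) monocytes, given throughout in the order of their replicate numbers 1 to 5, with 109532, 96315, 97005, 261035 and 82157 UMIs in all. The median monocyte held between 3793 and 5147.5 UMIs per library. No monocyte barcode occurred in more than 1 library, and Scrublet called none of the 118 a doublet. A UMI of Ptprc, the pan-leukocyte gene CD45, was found in 104 of them: in 66.7% and 94.7% of control and 88.2%, 92% and 92.9% of disease monocytes. Endothelial barcodes, with 2 or more Cdh5 UMIs and no condition on Ptprc, had one in 2.35% to 15.7% per library (median 2993 to 3764 UMIs). Barcodes that missed a single condition numbered 299 for Lyz2 and Csf1r, 138 for the 4 monocyte genes, 100 for C1q, 100 for Cdh5 and Pdgfra, 53 for the dendritic cell genes and 15 for Cd3. At the C1q limit, 81 members had 0 UMIs and 37 had 1, and outside it 9, 8 and 5 barcodes had 2, 3 and 4 while 78 had 6 or more. At the limit of the 4 monocyte genes, 11 members had 2 UMIs and 19 barcodes just outside had 1.

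The label was checked against markers of other cells. The summed level of the 11 macrophage genes, 3 of them limited by the rule, was 1726 and 1661 CPM (UMIs of the gene per 1000000 UMIs of the sum) in controls and 2072, 1977 and 1095 CPM in disease. Apoe held 1043 of these UMIs and Adgre1 56, while Cd163 was at 0 in all 5 libraries and Lyve1 and Timd4 each had 1 UMI among 646044. The neutrophil genes Ly6g, Cxcr2 and Retnlg were at 0 in all 5 libraries. The summed level of the 10 neutrophil genes ranged from 73.0 to 83.1 CPM in controls and from 92.8 to 169 in disease. NK cell genes were at 0 in 4 libraries and at 103 CPM in disease replicate 4. Fibroblast genes went against the label in some libraries: their summed level was 17146 and 446 CPM in controls and 4237, 3770 and 559.9 CPM in disease. That RNA sat in 8 barcodes with 85 or more UMIs over 5 fibroblast genes, 4 of them in control replicate 1, 1 in disease replicate 3 and 3 in disease replicate 4. All but 1 of these 8, in disease replicate 4, had only 3 or 4 Lyz2 UMIs and 0 of Csf1r and of the myeloid gene Tyrobp. They lower the levels of other genes: in control replicate 1 the summed level of Lyz2, Csf1r, Ly6c2, Plac8 and Chil3 was 12873 CPM with them and 17077 CPM without them. A further barcode in disease replicate 4 held most of its haemoglobin UMIs, and the erythroid genes were at 11692 CPM there with it and at 21.2 without it. These 9 barcodes met the rule and stayed in; the shares and the counts of genes called between disease and control are also given without them, and the levels of the Ly6c2 and Ace sets leave them out. Cd209a, a gene of monocyte-derived and conventional dendritic cells, had UMIs in 5 members, of which 1 in control replicate 1 had 23.

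Monocytes were 0.194% and 0.340% of the kept barcodes in controls and 0.292%, 0.502% and 0.182% in disease (95% Wilson intervals, counting error only: 0.123 to 0.307, 0.218 to 0.530, 0.182 to 0.467, 0.381 to 0.661 and 0.108 to 0.305). Disease replicates 4 and 5 were the highest and the lowest of all, and the groups overlapped. The mean was 0.267% ± 0.103 (SD, n = 2) in controls and 0.325% ± 0.162 (SD, n = 3) in disease, a difference of 0.0583 points (two-sided exact permutation test, p = 0.9; the smallest p that 10 splits allow is 0.1). Without the 9 barcodes rich in fibroblast or haemoglobin RNA it was 0.0608 points (exact permutation test, p = 0.7). With the rule applied to cells thinned to 2000 UMIs it was 0.231 points (p = 0.4, exact permutation test). The sign of the difference turned without control replicate 1, without disease replicate 4 and with Ptprc-positive barcodes as the denominator.

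**Figure D1:**
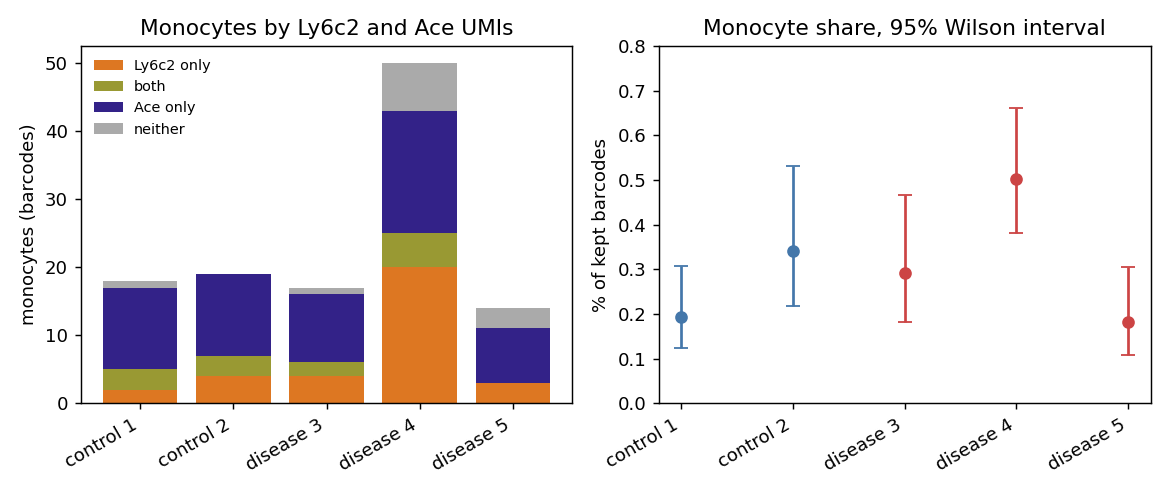
Left, the number of monocytes in each library, split by whether a barcode held UMIs of Ly6c2, of Ace, of both or of neither. Right, monocytes as a percentage of kept barcodes with 95% Wilson intervals (controls blue, disease red); disease replicate 4 has 50 monocytes and the highest share, 0.502%, while disease replicate 5 has the lowest, 0.182%.

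The monocytes fell into sets marked by Ly6c2, the classical marker, and Ace, angiotensin-converting enzyme, a nonclassical marker. Ly6c2 without Ace was seen in 33 barcodes and Ace without Ly6c2 in 60, 52 of them after the fibroblast-rich and haemoglobin-rich barcodes were left out. A further 13 had both. The median depth of the Ly6c2-only cells was 8443 UMIs and that of the 52 Ace-only cells was 3209, so a gene is more easily missed in the second set. Ace-only cells made up 12 of 14 and 12 of 16 of the barcodes with 1 of the markers in controls and 10 of 14, 18 of 38 and 8 of 11 in disease. The mean share was 80.4% ± 7.58 (SD, n = 2) in controls and 63.8% ± 14.3 (SD, n = 3) in disease, and every disease library lay below both controls (difference -16.5 points, two-sided exact permutation test, p = 0.3). Without the fibroblast-rich and haemoglobin-rich barcodes the Ace-only cells were 9 of 11 and 12 of 16 in controls and 9 of 13, 14 of 34 and 8 of 11 in disease, a difference of -17.4 points (exact permutation test, p = 0.3). With the rule applied to cells thinned to 2000 UMIs the difference was -27.1 points (exact permutation test, p = 0.1, the smallest possible), and with each monocyte thinned to 1000 UMIs it was -11.8 points (exact permutation test, p = 0.6). Without disease replicate 4 the difference was -8.28 points.

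Too few libraries held 20 cells of each set for a test between them, so the sets are described by their levels within each library, with no test. The Ly6c2-only levels rest on 2, 4, 4, 20 and 3 cells. Of the 4385 genes outside the rule with enough UMIs, 8.76% were higher and 5.34% lower in Ace-only cells in all 5 libraries. Among the 19 nonclassical genes measured, 15 were higher in Ace-only cells in all 5 libraries and none lower. Treml4, a receptor of the TREM family, stood at 414, 434, 479, 423 and 444 CPM in Ace-only cells and at 42.4, 54.1, 0, 33.2 and 0 CPM in Ly6c2-only cells of libraries 1 to 5. Pglyrp1, which encodes a peptidoglycan recognition protein, stood at 1050, 1255, 1533, 996 and 805 CPM against 212, 27.0, 0, 79.7 and 0 CPM. Both genes were several-fold higher in Ace-only cells in each library. The others of this order included Ear2, Eno3, Cd300e and Dusp16.

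Of 19 classical genes measured outside the rule, 2 were lower in Ace-only cells in all 5 libraries (Ms4a4c and Lgals3, a galectin) and none higher. Of 7 MHC class II genes, which present peptides to CD4 T cells, 6 were lower: H2-Aa was at 5028, 24.1, 128, 1021 and 2054 CPM in Ace-only cells and at 13015, 2460, 5838, 7018 and 6291 CPM in Ly6c2-only cells. In 4 of the libraries 1 or 2 cells carried that difference. A single Ly6c2-only cell held 610 of the 620 UMIs of Cd74, the invariant chain of class II, in disease replicate 3, one held 640 of 653 in disease replicate 5, and one held 283 of 365 in control replicate 2. The 2 Ly6c2-only cells of control replicate 1 held 342 and 508; they had 3 and 4 UMIs of Lyz2 and none of Csf1r, at the edge of the rule, and the first was the cell with 23 Cd209a UMIs. In disease replicate 4, 7 of the 20 Ly6c2-only cells held 3 Cd74 UMIs or fewer and the highest held 692 of 3370. A Cd74 UMI was found in 88.1% of endothelial barcodes there (median 2806 UMIs). Whether that is stray RNA or expression by endothelial cells was not tested, and neither was whether such low values in monocytes are background. Cd74 stood at 22376 CPM in the Ly6c2-only cells of that library against 5128 CPM in Ace-only cells. Without the Ly6c2-only cell with most Cd74 in each library, a choice made after seeing the data, 1 of the 7 class II genes (H2-DMa) and no classical gene were lower in Ace-only cells in all 5 libraries, against 3.9% of all genes. The nonclassical genes higher in all 5 then numbered 14 of 19, against 7.41% of all genes.

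Ccr2, the receptor for the chemokine CCL2, had 172 UMIs in 28 of the 33 Ly6c2-only cells and 9 UMIs in 3 of the 52 Ace-only cells. That is 632 CPM (exact Poisson interval 541 to 734) against 48.6 CPM (22.2 to 92.3), and control replicate 1 alone had the reverse order. The integrin gene Itgal, part of LFA-1, was higher in Ace-only cells in all 5 libraries, at 886 CPM (755 to 1032) against 169 (124 to 226). Of the 17 recruitment and adhesion genes measured, 7 shared that order: Cxcr4, Itga4, Itgb1, Itgb2, Itgal, Cd44 and S1pr5. These intervals cover counting error only.

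**Figure D2:**
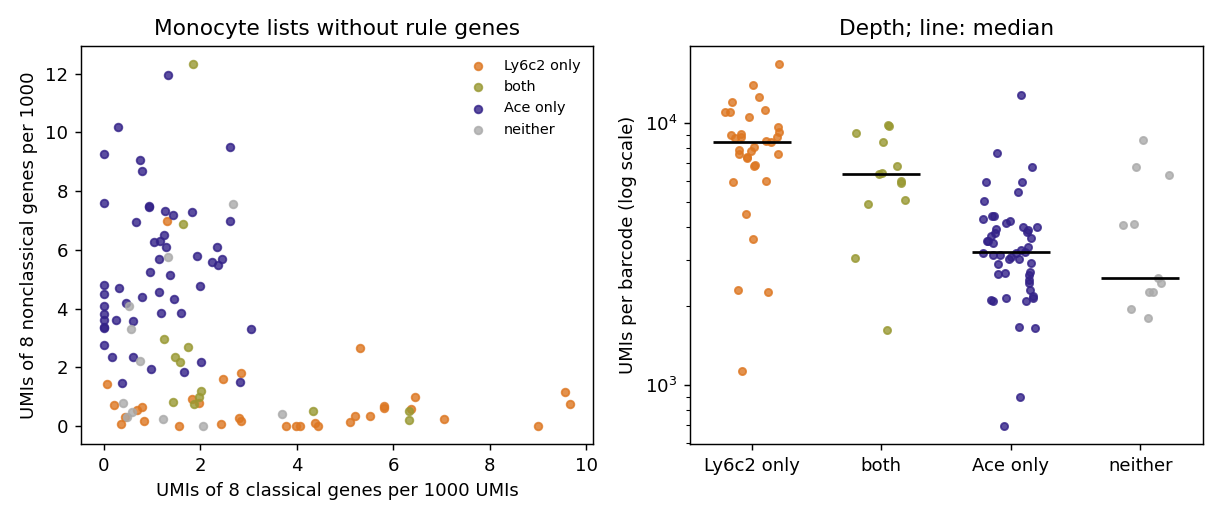
Left, each point is a monocyte without the fibroblast-rich and haemoglobin-rich barcodes, with UMIs of 8 classical genes (x axis) and 8 nonclassical genes (y axis) per 1000 UMIs, none of them used by the rule. Right, UMIs per barcode on a log scale with the median as a line, 8443 for Ly6c2-only and 3209 for Ace-only cells; Ace-only cells lie along the nonclassical axis and hold fewer UMIs.

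Disease and control monocytes were compared over the summed UMIs of each library (edgeR quasi-likelihood test, Benjamini-Hochberg adjustment over 1565 genes outside the rule). At an adjusted p under 0.05, 2 genes rose, the interferon-gamma-inducible chemokines Cxcl9 and Cxcl10, and 25 fell. That is 1.73% of the genes tested, 0.128% higher and 1.6% lower, and the median log2 fold change of all genes was 0.01. Among genes tested, 31.8% had groups that did not overlap. Without the fibroblast-rich and haemoglobin-rich barcodes 5 genes rose and 52 fell.

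Cxcl9 (ENSMUSG00000029417), which draws T cells through the receptor CXCR3, stood at 36.5 and 0 CPM in control monocytes and at 928, 636 and 1302 CPM in disease monocytes. That is a log2 fold change of 5.47 (SE 0.77), with an edgeR adjusted p of 0.0204. Cxcl10 (ENSMUSG00000034855), another ligand of CXCR3, stood at 18.3 and 10.4 CPM in controls and at 186, 360 and 463 CPM in disease (log2 fold change 4.37, SE 0.65, edgeR adjusted p = 0.0235). All 3 disease libraries lay above both controls for each gene. Both genes lay below the level of the filter, 103 CPM, in both controls, so they entered the test through disease libraries alone and a rise was favoured. Of the 112 tested genes that entered so, 111 lay above 0, and of the 96 that entered through controls alone 0 did.

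The Cxcl9 RNA came from few cells. It was seen in 1 of 18 and 0 of 19 control monocytes and in 2 of 17, 14 of 50 and 2 of 14 disease monocytes. One cell held 74 of the 90 UMIs in disease replicate 3, and one cell held 106 of the 107 in disease replicate 5. They are the Ly6c2-only cells with 610 and 640 Cd74 UMIs described above, and they had 5 and 3 Ly6c2 UMIs and 0 of Chil3. In disease replicate 4 the cell with most held 47 of 166 and had 138 Cd74 UMIs. The Ly6c2-only cell with most Cd74 there (692 UMIs) held 29, and a Ly6c2-only cell with 213 Cd74 UMIs held 0. Ly6c2-only cells carried 345 of the 367 Cxcl9 UMIs, in 12 of 33 cells, and the 60 Ace-only cells carried 4. Barcodes with 2 or more Cd79a UMIs, B cells that should lack the gene, had a Cxcl9 UMI in 3.25% and 0.683% of controls and 3.43%, 13.7% and 8.33% of disease (median 2498.5 to 3238 UMIs); monocytes were at 5.56% and 0% and at 11.8%, 28% and 14.3%. The call of Cxcl9 did not hold without disease replicate 3 (edgeR adjusted p = 0.0657), without disease replicate 5 (0.112), with C1q at 0 (0.295) or with the rule applied to thinned cells, where the log2 fold change was 1.78 (0.299); over all alternatives the adjusted p ran from 1.09e-22 to 0.299.

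The Cxcl10 RNA came from few cells as well. It was seen in 2 of 18 and 1 of 19 control monocytes (11.1% and 5.26%) and in 2 of 17, 12 of 50 and 2 of 14 disease monocytes (11.8%, 24% and 14.3%). One cell held 17 of the 18 UMIs in disease replicate 3, one held 29 of 94 in disease replicate 4, and one Ace-only cell held 33 of 38 in disease replicate 5. Without the highest cell of each library, Cxcl10 stood at 9.39 and 0 CPM in controls and at 11.6, 258 and 67.1 CPM in disease. The B cell barcodes had a Cxcl10 UMI in 5.84% and 1.02% of controls and 2.29%, 10.5% and 2.08% of disease. The edgeR adjusted p of Cxcl10 ran over the alternatives from 7.09e-10 to 0.206 and also missed the threshold without either control, without disease replicate 4 or 5, with C1q at 0 and with the thinned rule.

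**Figure D3:**
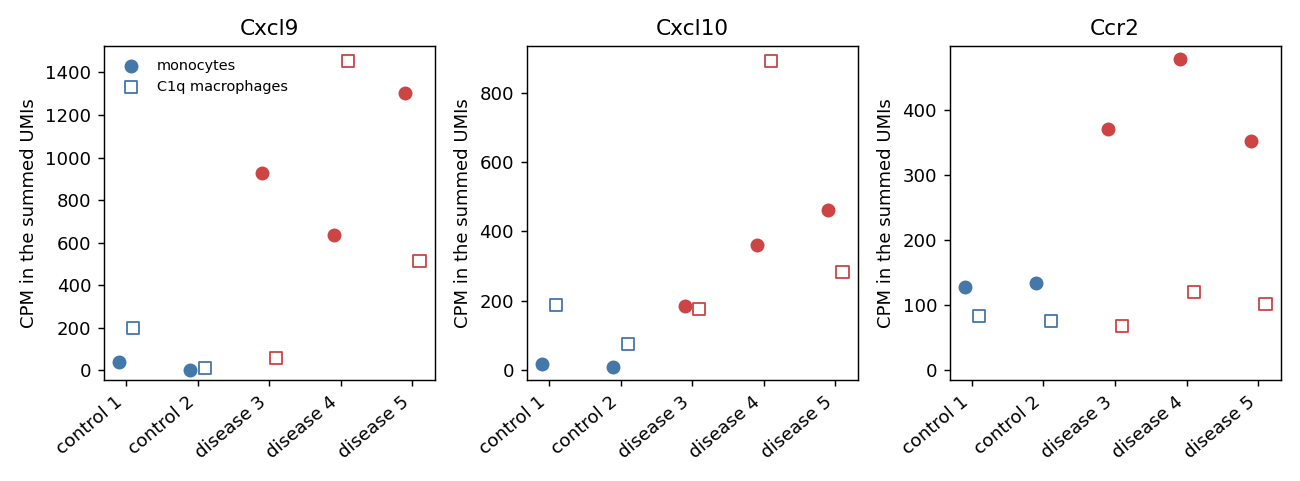
CPM of Cxcl9, Cxcl10 and Ccr2 in the summed UMIs of monocytes (filled circles) and C1q macrophages (open squares) of each library (controls blue, disease red). In monocytes all 3 disease libraries lie above both controls for each gene; in macrophages the Cxcl9 value of disease replicate 3, 55.4 CPM, lies below that of control replicate 1, 197 CPM.

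Ccr2 itself stood at 128 and 135 CPM in control monocytes and at 371, 479 and 353 CPM in disease monocytes. The groups did not overlap, but the gene missed the threshold (log2 fold change 1.55, SE 0.30, edgeR adjusted p = 0.0671). Endothelial barcodes with 2 or more Cdh5 UMIs, which should lack Ccr2, had a Ccr2 UMI in at most 0.597% of cells per library, and the B cell barcodes in at most 2.29% (disease replicate 3). Monocytes had one in 27.8% and 15.8% of controls and in 47.1%, 50.0% and 21.4% of disease. The share of Ly6c2-only cells, which hold most of the Ccr2 RNA, also differed between these libraries, and its part in the Ccr2 values was not tested. Within Ly6c2-only cells Ccr2 stood at 84.8 and 324 CPM in controls and at 655, 730 and 957 CPM in disease, with 2 and 4 such cells in the controls and 4, 20 and 3 in disease. The control values rest in part on cells at the edge of the rule: the level in control replicate 1 is 2 UMIs from the 2 cells with 3 and 4 Lyz2 UMIs and high Cd74 described above, and 1 of the 4 cells of control replicate 2 had 3 Lyz2 and 283 Cd74 UMIs.

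Of the lists, which were chosen with earlier results of these data known, none but the interferon-gamma list had a member that rose. At an unadjusted p under 0.05 (edgeR), 47 of the 1565 genes tested were higher and 170 lower in disease. Those higher included 2 classical genes (Fn1 and Ccr2, the second also on the recruitment list), 4 interferon-gamma genes (Cxcl9, Cxcl10 and the GTPase genes Gbp2 and Ifi47), 3 inflammatory genes (Osm, Ccl2 and Ccl5), Selenop of the macrophage maturation list and Zeb2 of the transcription factors. Of these, Cxcl9, Cxcl10, Gbp2, Osm, Ccl2 and Ccl5 entered the test through disease libraries alone, which favoured a higher value there. Those lower included the NF-kappaB inhibitor gene Nfkbia of the inflammatory list, the integrin gene Itgb1, the transcription factor gene Id2 and 5 immediate early and dissociation genes (Atf3, Jund, Junb, Dnajb1 and Dusp1). No nonclassical, MHC class II, type I interferon or Fc receptor gene passed that limit in either direction. Of 18 classical monocyte genes tested none passed, 14 lay above 0 and the median log2 fold change was 0.37. Fn1, fibronectin, was at 73.0 and 187 CPM in controls and at 423, 375 and 195 CPM in disease (edgeR adjusted p = 0.276). Of 16 nonclassical genes none passed, 4 lay above 0 and the median was -0.48. Treml4 was at 210 and 322 CPM in controls and at 227, 146 and 219 CPM in disease, so the groups overlapped.

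Of the 40 interferon-gamma response genes, 18 had enough UMIs to be tested, 2 passed and the median log2 fold change was 0.56. The filter asked for 103 CPM in 2 libraries, and 6 of the 18 (Cxcl9, Cxcl10, Gbp2, Igtp, Cd274 and Slamf8) lay below that level in both controls, so they entered through disease libraries alone and a higher value there was favoured. Of the other 12, 11 lay above 0 with a median of 0.33, where 50.8% of all genes that reached the level in a library of each group lay above 0. The inflammatory genes Ccl2, Ccl5, Ptgs2 and Osm entered in the same way. The summed level of the list was 3497 and 1879 CPM in controls and 4814, 5969 and 5550 CPM in disease. Without the cell that held most of the list in each library it was 3007 and 1669 CPM in controls and 3334, 5442 and 3032 CPM in disease. In each disease library that cell was also the one with most Cxcl9 UMIs. Of 7 MHC class II genes none passed, with a median of 0.52; Cd74, the invariant chain, was at 15822 and 5274 CPM in controls and at 11968, 15446 and 23212 CPM in disease.

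Type I interferon genes had a single cell behind their highest level. Of 3 tested none passed. Their summed level over 19 genes was 539 and 498 CPM in controls and 804, 889 and 3420 CPM in disease. In disease replicate 5, 1 Ace-only cell of 7631 UMIs held 256 of the 281 UMIs, and without it the level was 335 CPM. Of 16 inflammatory cytokine and NF-kappaB genes none passed (median 0.40); Il1b, the cytokine interleukin-1 beta, was at 1123 and 976 CPM in controls and at 1732, 1329 and 1509 CPM in disease, without overlap (log2 fold change 0.46, edgeR adjusted p = 0.486). Of 13 recruitment and adhesion genes, 11 growth factor receptors and transcription factors and 4 Fc receptors none passed, with medians of 0.03, -0.15 and 0.47. No cell cycle gene had enough UMIs to be tested.

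The 25 genes that fell stood between 137 CPM (Ypel3) and 14325 CPM (Fth1) in control replicate 1. Fth1, the ferritin heavy chain that stores iron, stood at 14325 and 15782 CPM in control monocytes and at 2598, 1674 and 2519.6 CPM in disease monocytes (log2 fold change -2.80, SE 0.23, edgeR adjusted p = 0.00259). Pfn1, the actin-binding profilin, stood at 2054 and 2118 CPM and at 175, 149 and 219 CPM (log2 fold change -3.62, edgeR adjusted p = 0.00259). Cox5b, a subunit of cytochrome c oxidase, stood at 548 and 395 CPM and at 30.9, 19.2 and 12.2 CPM (log2 fold change -4.54, SE 0.42, edgeR adjusted p = 0.00326). None of the 3 overlapped between groups.

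The largest falls by the naming rule were those of H2afj, a histone H2A variant, Rnaset2a, a ribonuclease, Ptpn18, a tyrosine phosphatase, Cox5b, Cox5a and Ypel3, with log2 fold changes of -6.39, -5.17, -4.71, -4.54, -4.13 and -3.70. Their calls held in 13 of 16, 12 of 16, 15 of 16, 17 of 18, 14 of 17 and 9 of 16 alternatives. Each lay below 103 CPM in all disease libraries, so it entered the test through controls alone and a fall was favoured. H2afj was at 219 and 311 CPM in controls and at 10.3, 0 and 0 CPM in disease. Rnaset2a has a near-identical copy, Rnaset2b, and its counts are uncertain for that reason. The class I gene H2-D1, which presents peptides to CD8 T cells and has close relatives in the same family, fell from 3433 and 3333 CPM to 814, 759 and 925 CPM (log2 fold change -2.10, edgeR adjusted p = 0.00326). Atf3, a stress-induced transcription factor, was the only called gene of the immediate early and dissociation list, of which 14 were tested: it stood at 839.9 and 820.2 CPM in controls and at 278, 203 and 158 CPM in disease (log2 fold change -2.03, edgeR adjusted p = 0.0211). The call of Atf3 held in 11 of 18 alternatives.

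The same 25 genes were lower in every other cell type examined. In C1q macrophages, Cdh5 barcodes (endothelial cells), Cd79a barcodes (B cells) and Pdgfra barcodes (fibroblasts), 25 of 25 had all disease libraries below both controls, where 16.1%, 18%, 18.1% and 19.2% of the 1565 genes did. Fth1 in macrophages stood at 10631 and 9076 CPM in controls and at 1809, 1282 and 2019 CPM in disease. These falls were seen in each cell type examined, and since each library belongs to 1 group, the disease and the making, sequencing and upstream processing of the libraries cannot be told apart. All 5 matrices list the same genes and the same software version, 3.1.0; the read layout and the reference build of each library are not given in the sources used here. The median GC content of the first 300 bases of the transcripts was 59.6% for the 25 genes and 55.7% for genes not called. Over the genes tested, log2 fold change and GC content had a Spearman correlation of -0.312. The part of GC content was not tested beyond a fit with the GC trend removed, where 19 genes fell. Neither Cxcl9 nor Cxcl10 had all disease libraries above both controls in any of these 4 cell types, where 31.3%, 39.3%, 22.3% and 38.8% of the 1565 genes did. Both genes had a higher mean in disease than in control macrophages: Cxcl10 stood at 189 and 74.3 CPM in controls and at 176, 890 and 284 CPM in disease there.

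**Figure D4:**
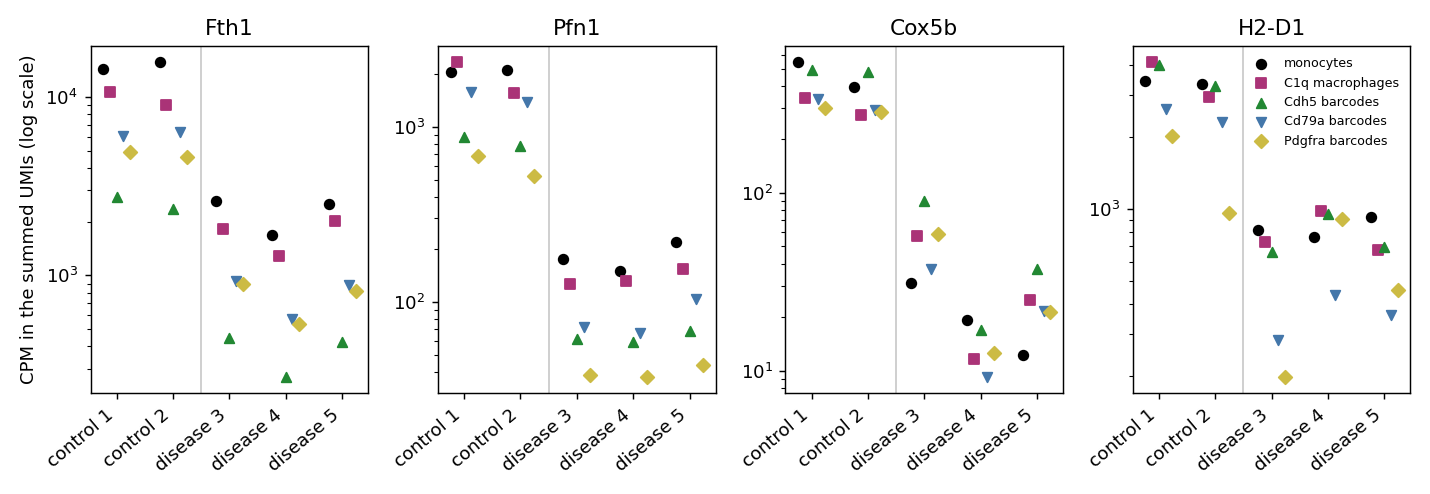
CPM on a log scale of 4 of the genes that fell, in the summed UMIs of monocytes and of 4 other cell types, by library; the grey line parts controls from disease. In each cell type the 3 disease libraries lie below both controls, as for Fth1 in monocytes at 14325 and 15782 against 2598, 1674 and 2519.6 CPM.

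Monocytes were also set against the C1q macrophages of the same libraries, 3290 barcodes with 5 or more C1q UMIs that met the other conditions save that on Ly6c2, Plac8, Chil3 and Ace (1010 and 401 in controls, 451, 872 and 556 in disease). Both sets were drawn by C1q UMIs, so genes that go with C1q in a cell had to differ. Monocytes alone also had to hold UMIs of Ly6c2, Plac8, Chil3 or Ace, so genes that go with these were favoured in monocytes. With the library as a block, 709 of 7706 genes outside the rule were higher and 1036 lower in monocytes (edgeR adjusted p under 0.05; 22.6% called, 9.2% higher and 13.4% lower), and the median log2 fold change was -0.25. Each monocyte sum comes from far fewer cells than its macrophage sum, and the model gives both the same spread.

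Monocyte genes of both kinds were higher, which the choice of the 2 sets favoured. Of 17 classical genes tested 15 rose, among them Hp, haptoglobin (log2 fold change 5.97, SE 0.41), Thbs1, thrombospondin-1 (3.50, SE 0.21), Fn1 (3.32, SE 0.32) and Ccr2 (1.55, SE 0.24), and the median was 2.44. F13a1, coagulation factor XIII, is on the classical list but fell (-2.70, SE 0.33): it stood at 9.13, 166, 186, 487 and 316 CPM in monocytes and at 974, 1524, 1760, 923 and 1442 CPM in macrophages. Of 19 nonclassical genes 14 rose and 2 fell, with a median of 2.07. Pglyrp1 had the largest rise by the naming rule (log2 fold change 6.95, SE 0.33, edgeR adjusted p = 2.04e-14), at 393, 654, 536, 257 and 377 CPM in monocytes and 1.28, 0.476, 7.32, 3.42 and 4.08 CPM in macrophages. Gm9733, Treml4, Hp, Napsa, an aspartic protease, and F10, coagulation factor X, followed. The fractalkine receptor gene Cx3cr1, on the nonclassical list, and the transcription factor gene Klf2 were the 2 that fell (log2 fold changes -0.66 and -1.80).

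Macrophage maturation genes were lower: 23 of 24 tested fell and none rose, with a median log2 fold change of -4.17 (-3.62 with genes at 0 set to 3 counts over the group). Mgl2, a lectin, Cd163, the haemoglobin scavenger receptor, Fcrls, Fxyd2, Fcna and Tanc2 had no UMI among the 646044 of monocytes, which allows up to 4.64 CPM. They were at least 153, 73.5, 70.0, 36.3, 26.5 and 24.9-fold lower in monocytes than in macrophages, where Mgl2 stood at 710 and Cd163 at 341 CPM. Apoe, apolipoprotein E, was at 1552, 1547, 1979, 1755 and 901 CPM in monocytes and at 15558, 17859, 18935, 12390 and 16442 CPM in macrophages (log2 fold change -3.49, SE 0.14). Selenop, a selenium carrier, fell by 3.78 on the log2 scale (SE 0.20).

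Inflammatory and presentation genes were mixed. Of 20 inflammatory genes 11 fell and 1 rose: the neutrophil chemokine gene Cxcl2 fell (log2 fold change -2.34, SE 0.12), the monocyte chemokine gene Ccl2 fell (-3.56, SE 0.25) and Il1b rose (1.84, SE 0.16). Of 10 MHC class II genes 7 fell and 2 rose, and Cd74 had a log2 fold change of -1.39 (SE 0.15). Of 16 recruitment and adhesion genes 7 rose and 4 fell; Itgal rose by 4.48 (SE 0.37) and Itga4, part of the receptor for VCAM-1, by 1.66 (SE 0.19). Of 16 immediate early and dissociation genes 13 fell and none rose, among them Hspa1a, a heat shock protein (-4.19, SE 0.30). Markers of other cell types moved with this comparison too, and their part in it was not tested. Of 8 cardiomyocyte genes tested 6 fell (median log2 fold change -2.38), the B cell gene Ighm fell (-1.73) and the endothelial genes Flt1 and Ly6c1 rose (2.47 and 1.24). The neutrophil gene G0s2 rose (2.50) and the dendritic cell gene Bst2 fell (-0.91). The 6 fibroblast marker genes tested rose; the summed level of the fibroblast list in monocytes was 386 to 761 CPM per library without the barcodes rich in other RNA and 446 to 17146 CPM with them.

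**Figure D5:**
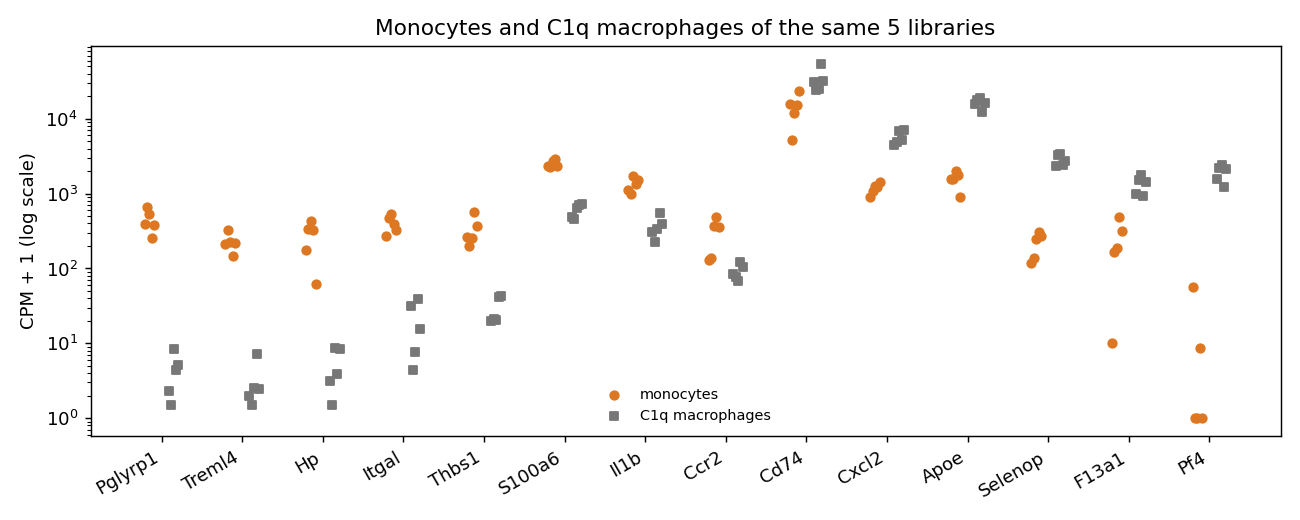
CPM + 1 on a log scale for 14 genes, with 1 point per library for monocytes (orange circles) and C1q macrophages (grey squares) of the same 5 libraries. The points of the sets separate for each gene, with Pglyrp1 at 257 to 654 CPM in monocytes and 0.476 to 7.32 CPM in macrophages, and Apoe at 901 to 1979 and 12390 to 18935 CPM.

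The last question was whether the disease change differed between monocytes and C1q macrophages, tested as a class by group term with the library as a block. Of 9473 genes outside the rule, 10 had a larger change toward disease in monocytes and 7 a smaller one (edgeR adjusted p under 0.05; 0.179% called, 0.106% and 0.0739%). Of the 10, 4 were haemoglobin genes, whose UMIs in disease replicate 4 sat in the haemoglobin-rich barcode. Of the 7, Mgp, Bgn and Cxcl1 were highest in the monocyte sum of control replicate 1, at 3223, 831 and 1634 CPM, where 4 of 18 barcodes were fibroblast-rich. Without the fibroblast-rich and haemoglobin-rich barcodes 5 and 4 genes were called, and DESeq2 called 0 and 0 (57 and 54 at an unadjusted p under 0.05).

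Cxcl9 rose more in monocytes than in macrophages (log2 difference 3.92, SE 0.62, edgeR adjusted p = 0.0072). In macrophages it stood at 197 and 10.5 CPM in controls and at 55.4, 1452 and 514 CPM in disease. Without the fibroblast-rich and haemoglobin-rich barcodes the adjusted p was 0.0566, in a range from 4.75e-09 to 1 over the alternatives. Ctsc, cathepsin C, stood at 274 and 301 CPM in control monocytes and at 649, 1008 and 718 CPM in disease monocytes, and at 1501, 1513, 1554, 1810 and 1613 CPM in macrophages (log2 difference 1.39, SE 0.34, edgeR adjusted p = 0.0336, range 0.0252 to 1). It passed the threshold in 3 of 9 alternatives, and its disease change in nonclassical monocytes alone had the opposite sign (log2 fold change -0.35). Cxcl10 had a log2 difference of 3.03 (edgeR adjusted p = 0.0376) and passed in 1 of 9 alternatives, without disease replicate 4, with adjusted p-values from 0.00279 to 1. F13a1, also called, had a log2 difference of 2.13 (SE 0.43). It stood at 9.13 CPM (1 UMI) and 166 CPM in control monocytes and at 186, 487 and 316 CPM in disease monocytes. In macrophages it stood at 974 and 1524 CPM in controls and at 1760, 923 and 1442 CPM in disease. The gap between the classes in disease replicate 3 was thus close to that in control replicate 2.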

How the data were processed

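Libraries were made with the 10x Genomics 5-prime V1.1 chemistry, per the labels' protocols. The deposited matrices hold raw UMI counts for each gene and barcode, and their headers give the software version as 3.1.0; the submitters' processing notes name Cell Ranger 3 and Seurat 3. Groups come from the series' design text. The members and gene lists were chosen with earlier results of these data known. Rule barcodes were selected on raw counts, and doublets were called with Scrublet in scanpy 1.11.5 for an alternative. UMIs were summed per library; CPM values use plain totals. Sums were fitted with edgeR 4.0.16 in R 4.3.3 (TMM, filterByExpr, quasi-likelihood, Benjamini-Hochberg, threshold 0.05), tested on simulated data. Beyond the lists, the text names the 6 largest rises and falls per fit among called genes whose mean reached 5 log2 CPM and whose libraries do not overlap, and other genes (Fth1, Pfn1, H2-D1, Ctsc and those of the class by group term) chosen after their values were seen. Shares were tested by exact permutation over libraries. Alternatives included DESeq2 1.42.0, other filters and scalings, stricter rules and leaving out each library.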

Additional observations from a re-analysis of the deposited data

Results flagged for a closer look

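These 7 genes had a disease change in monocytes that differed from that in C1q macrophages of the same libraries, by the class by group term (edgeR adjusted p under 0.05). C3ar1, the receptor for complement C3a, had a log2 difference of 9.78; it was at 0 CPM in both control monocyte sums and at 51.5, 53.6 and 97.4 CPM in disease, so this fitted value is no bound. Cxcl9 and Cxcl10 had log2 differences of 3.92 and 3.03, and Ctsc one of 1.39. Pglyrp1, Itgb7, an integrin subunit, and Clec4e, a lectin receptor, had log2 differences of -2.36, -2.30 and -1.94. Pglyrp1 was nearly absent from macrophages, with 63 UMIs in all. Of 9 alternatives, the call of Cxcl10 held in 1, that of Ctsc in 3, those of Cxcl9, Pglyrp1, Itgb7 and Clec4e in 4 each and that of C3ar1 in 5, with adjusted p-values up to 1 for each gene. With DESeq2 none of the 7 passed the threshold. In nonclassical monocytes alone the disease change of Ctsc had the opposite sign (log2 fold change -0.35).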

How the results depend on the processing

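Between disease and control monocytes, the main test called 2 genes higher and 25 lower. DESeq2 called 6 and 41, no filter beyond 1 count 29 and 103, the rule on cells thinned to 2000 UMIs 4 and 103, and a C1q of 0 gave 0 higher (29 at an unadjusted p under 0.05). Of the alternatives chosen after seeing the data, leaving out fibroblast-rich and haemoglobin-rich barcodes called 5 and 52, nonclassical monocytes alone 0 and 10 of 637 genes tested, and cells thinned to 1000 UMIs 0 and 9 of 327, with 8 and 6 higher at an unadjusted p under 0.05 in these last fits. Leaving out 1 library gave 0 to 4 higher and 2 to 16 lower, the fewest without disease replicate 5 (34 higher at an unadjusted p under 0.05). At an unadjusted p under 0.05 the main test had 47 higher and 170 lower. The sign of Ctsc turned in nonclassical monocytes alone (-0.35).

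Against macrophages, cells thinned to 1000 UMIs gave 258 higher and 482 lower, and leaving out 1 library gave 660 to 747 higher and 690 to 833 lower, the fewest lower without disease replicate 3 (690). For the class by group term DESeq2 called 0 and 0, no filter 3 lower, leaving out the fibroblast-rich and haemoglobin-rich barcodes 5 and 4, and leaving out 1 library 4 to 17 higher and 3 to 9 lower, the fewest without disease replicate 4. RLE in place of TMM moved the median of all genes in that term from 0.13 to 0.02. The monocyte share difference was -0.273 points with Ptprc-positive barcodes as denominator and -0.0299 to 0.131 points when 1 library was left out, with -0.0146 without control replicate 1. The difference in Ace-only share was negative under each alternative run, from -27.1 points with the rule on cells thinned to 2000 UMIs to -8.28 without disease replicate 4; it was -11.8 with each cell thinned to 1000 UMIs. No monocyte was a called doublet, so removing doublets left the fits as they were. The classical against nonclassical test and its alternatives were not run, since too few libraries held 20 cells of each set. No paired analysis was possible because the control and disease libraries share no replicate number. In the control sums a count of 0 allows up to 27.4 and 31.1 CPM, so changes below those levels were not detectable at this depth.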
